A study of Mus musculus with 10 samples.

Results

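9 transcription factor genes were followed across mouse prostate orthograft tumours. They belong to the Pax and Zic families and to the sine oculis homeobox family. The genes are Pax2, Pax3, Pax6 and Pax8, Zic1, Zic2 and Zic5, and Six2 and Six4. All 9 were found by Ensembl ID among the 47069 gene IDs of the count files of all 10 tumours. They were chosen because earlier results of these data showed line differences among them, so their levels and fold changes are given as a description with no test. 5 of the 9 separated at least 2 lines by more than a few counts: Pax3, Zic2 and Zic5 were high in CP2 alone, Pax8 in P1 alone, and Six4 was graded from P1 to CP1 to CP2. The description of the set as genes switched on or off by line does not hold for the other 4. Pax2 was present at overlapping levels in all 3 lines, Pax6 and Six2 stayed below 1 CPM (read counts scaled to a common library size) in every tumour, and Zic1 had 2 counts in all tumours together. Of all 17644 genes tested, 50.8% did not overlap between the tumours of CP1 and P1. The share was 60.1% for CP2 against P1 and 52.3% for CP2 against CP1, so nothing is read from the 5 of 9.

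RNA was sequenced from tumours of male hosts of CD-1 Nude, a strain with an impaired thymus, each of which had received cells of 1 line in an anterior prostate lobe. P1 is a cell line raised from the prostate tumour of a mouse aged 14 months, and 3 of its tumours were sequenced. CP1 (3 tumours) and CP2 (4 tumours) are cell lines raised from prostate tumours of mice aged 6 and 8 months, whose genotype the labels write with Ctnnb1pc(ex3)Δ/+, a deletion in the beta-catenin gene that stabilises the protein. Other parts of the genotype also differ between P1 and the CP lines, and the labels do not name the Cre driver behind it. Each condition is 1 line from 1 donor tumour, so line, genotype and donor age cannot be told apart, and a difference between CP1 and CP2 is a difference between 2 lines of the same labelled genotype. Since the labels assign no animal to a library, p-values cover only the spread between the sequenced samples, which may in part be technical.

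Pax proteins bind DNA through a paired domain, Zic proteins through zinc fingers related to those of the Gli factors, and sine oculis proteins through a homeodomain beside a domain named after the family. Pax2 and Pax8 act in the nephric duct, from which the kidney collecting system and the male genital ducts arise, and Pax8 is also a regulator of the thyroid. Pax3, Zic2 and Zic5 act in the dorsal neural tube and neural crest, and Pax3 also in muscle progenitors. Pax6 is a regulator of eye, brain and pancreatic islet development. Six2 maintains nephron progenitors, and Six4 acts in muscle and sensory placodes, where Eya proteins serve as coactivators and Dach proteins as corepressors of these factors.

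Promoters of the 7 members held by the RefSeq table (GRCm38.p6), 250 bases before to 50 after the start, were searched. Pax3 and Zic2 are the others. 3 are printed, 1 for each pattern of level described below, with each CpG in capitals and the strand of the gene shown 5′ to 3′. Zic5 stands for the genes high in CP2, Six4 for the graded gene and Pax8 for the gene high in P1. The Zic5 window, chr14:122465609-122465908 on the minus strand, faces the start of Zic2, and the windows of Six4, chr12:73113376-73113675, and of Pax8, chr2:24475550-24475849, are on the minus strand too.
Zic5: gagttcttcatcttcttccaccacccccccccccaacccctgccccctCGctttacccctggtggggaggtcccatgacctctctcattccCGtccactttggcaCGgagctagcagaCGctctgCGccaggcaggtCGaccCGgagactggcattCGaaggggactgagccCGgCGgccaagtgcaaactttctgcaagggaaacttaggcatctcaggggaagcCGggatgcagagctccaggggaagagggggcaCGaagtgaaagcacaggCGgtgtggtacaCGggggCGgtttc
Six4: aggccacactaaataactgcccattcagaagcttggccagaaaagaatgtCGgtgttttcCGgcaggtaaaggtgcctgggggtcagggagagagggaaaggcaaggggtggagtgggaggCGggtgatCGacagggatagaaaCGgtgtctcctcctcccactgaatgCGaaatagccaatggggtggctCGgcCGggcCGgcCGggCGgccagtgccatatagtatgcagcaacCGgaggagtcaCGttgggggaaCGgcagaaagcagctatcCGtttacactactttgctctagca
Pax8: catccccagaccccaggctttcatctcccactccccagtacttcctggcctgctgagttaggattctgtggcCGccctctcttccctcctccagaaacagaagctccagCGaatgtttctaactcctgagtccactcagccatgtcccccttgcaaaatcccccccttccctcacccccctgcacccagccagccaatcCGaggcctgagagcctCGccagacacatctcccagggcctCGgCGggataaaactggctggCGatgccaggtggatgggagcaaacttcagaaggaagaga
The printed Zic5 and Six4 windows each held 15 CpG and the Pax8 window held 7, the median of all 32851 promoters of the table being 7. The TCF/LEF motif was searched as CTTTGAT and as CTTTGAA on both strands, 2 forms that differ in the last base, and the other motifs below were searched in the same way. No window of a member held either one, while 3.73% and 5.14% of all promoters did. TATAAA was in none of the members' windows and in 13.6% of all promoters. CCAAT was in the printed Six4 and Pax8 windows and in 37.4% of all promoters, and GGGCGG was in all 3 printed windows and in 35.7% of all promoters. Another Six4 window, chr12:73113196-73113495, was searched but not printed, and it held 16 CpG and GGGCGG but no CCAAT. These matches describe letters in the windows and say nothing of a factor's binding.

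Totals were 28050484 to 37180721 counts in P1, 25081535 to 30546426 in CP1 and 18800912 to 20638085 in CP2. 3 counts in a tumour therefore correspond to 0.0924 to 0.11 CPM in P1, 0.0974 to 0.122 in CP1 and 0.137 to 0.154 in CP2, a floor that covers counting error only. The title of CP2 replicate 1 names CP1 but its tissue and source labels name CP2, where it was kept. The tumours of a line were not alike. 8 seminal vesicle markers took 14.9%, 6.85% and 1.79% of the counts of P1 replicates 1, 2 and 3 and at most 0.168% in any CP tumour, and 6 urothelium markers summed to 58.4 to 1351 CPM in CP1 against at most 48.4 elsewhere. Of the prostate and epithelial markers, Hoxb13, a prostate homeobox gene, had mean levels of 50.1, 56.7 and 50.3 CPM in P1, CP1 and CP2. The luminal keratin gene Krt8 had 4557, 160 and 51.5 CPM, and the epithelial gene Epcam 1103, 21.7 and 13.4 CPM. The summed 11 markers were at 7325 to 14524 CPM in P1, 914 to 1269 in CP1 and 449 to 659 in CP2, so these markers of the labelled tissue were present in every line and far lower in the CP tumours. In bulk tumours, fewer cells of a type and less RNA per cell cannot be told apart.

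Pax3 (ENSMUSG00000004872, chromosome 1, minus strand), the neural crest and muscle progenitor factor, was at 13.9, 12.4, 12.7 and 12.5 CPM in the 4 CP2 tumours. The 3 CP1 tumours were at 0.177, 0.195 and 0.284 CPM, which is 5, 6 and 7 counts, and the 3 P1 tumours had 0, 0 and 1 count. All CP2 tumours were high and close to each other, and no value of a line fell within the range of another line. The log2 fold change of CP2 over CP1 was 5.86 ± 0.34 (SE). The ratio of CP1 to P1 was 19.7 with an exact 95% interval of 3.12 to 823, which is wide because P1 held a single count. Exact intervals, here and below, rest on counts summed over the tumours of a line. They cover counting error only and not the spread between tumours.

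Zic2 (ENSMUSG00000061524, chromosome 14, plus strand), a factor of the dorsal neural tube, was at 17.7, 18.0, 14.4 and 16.2 CPM in CP2. P1 tumours were at 0.185, 0.156 and 0.840 CPM, and CP1 tumours at 0, 0.0325 and 0 CPM, 1 count in all. CP2 was high in every tumour, P1 was low with replicate 3 above the other 2, and CP1 was at or near 0. The log2 fold change of CP2 over P1 was 5.42 ± 0.54 (SE), and the ratio of CP2 to CP1 was 1385 with an exact 95% interval of 248 to 54752. P1 exceeded CP1 by a ratio of 31.0, with an interval of 5.20 to 1260 that covers counting error only. Replicate 3 held 23 of the 34 P1 counts, so the spread between tumours is wider than this interval allows for.

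Zic5 (ENSMUSG00000041703, chromosome 14, minus strand), whose product acts in neural crest formation, lies next to Zic2 on the opposite strand, the 2 starts being 9.758 kb apart. The CP2 tumours had 6.63, 7.51, 6.39 and 6.42 CPM, the P1 tumours 0.0308, 0.0624 and 0.146 CPM, and the CP1 tumours 0, 0.0325 and 0 CPM. CP2 was again high in every tumour, while the ranges of P1 and CP1 overlapped at a few counts. The log2 fold change of CP2 over P1 was 6.36 ± 0.45 (SE). In CP2 the ratio of Zic2 to Zic5, per length of exon, was 3.83 to 4.54 over the 4 tumours, so the levels of the 2 neighbours kept nearly the same ratio in every CP2 tumour.

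Pax8 (ENSMUSG00000026976, chromosome 2, minus strand), the nephric and thyroid factor, was at 4.87, 11.9 and 12.3 CPM in P1. The CP1 tumours had 0.318, 0.682 and 0.0405 CPM, and the CP2 tumours 0.720, 0.0491, 1.96 and 0.279 CPM. Every P1 tumour was above every CP tumour, and the ranges of CP1 and CP2 overlapped. The log2 fold change was -4.75 ± 1.02 (SE) for CP1 over P1 and -3.67 ± 0.86 for CP2 over P1. The lowest P1 value was in the tumour with 14.9% seminal vesicle transcripts and the 2 higher ones in the tumours with 6.85% and 1.79%, and the part of other tissue in these levels was not tested. Gm13415, a processed transcript that overlaps Pax8 on the opposite strand, had 21, 28 and 24 counts in P1, 12, 3 and 4 in CP1 and 1, 2, 0 and 0 in CP2. The strand setting of the counting is not stated, so reads of the 2 genes cannot be told apart where they overlap.

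Six4 (ENSMUSG00000034460, chromosome 12, minus strand), a factor of muscle and placodes, was the graded member. The P1 tumours had 3.45, 3.46 and 1.68 CPM, the CP1 tumours 10.6, 7.21 and 7.86 CPM, and the CP2 tumours 15.5, 23.0, 21.6 and 21.3 CPM. No ranges overlapped, and CP1 lay between the other 2 lines. The log2 fold change was 1.57 ± 0.28 (SE) for CP1 over P1, 2.82 ± 0.28 for CP2 over P1 and 1.25 ± 0.26 for CP2 over CP1.

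Pax2 (ENSMUSG00000004231, chromosome 19, plus strand), the nephric duct factor closest in role to Pax8, did not follow Pax8. The P1 tumours had 12.8, 12.0 and 6.42 CPM, the CP1 tumours 17.9, 10.0 and 16.3 CPM, and the CP2 tumours 18.1, 16.8, 14.9 and 10.9 CPM. All 3 ranges overlapped, and each line had tumours near 10 to 13 CPM. As for Six4 and unlike Pax8, the lowest P1 value was in the tumour with 1.79% seminal vesicle transcripts. The others were in those with 14.9% and 6.85%, and the part of other tissue in these levels was not tested. The log2 fold change was 0.50 ± 0.31 (SE) for CP1 over P1, 0.54 ± 0.29 for CP2 over P1 and 0.04 ± 0.29 for CP2 over CP1.

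The other 3 members were near the floor. Pax6, the eye and islet factor, was at 0.216, 0.218 and 0.256 CPM in P1, 0.424, 0.390 and 0.324 in CP1 and 0.360, 0.147, 0.137 and 0.140 in CP2. CP1 was just above P1, on 32 against 21 counts in all. Six2, the nephron progenitor factor, was at 0.277, 0.0624 and 0.183 CPM in P1, 0.495, 0.682 and 0.122 in CP1 and 0, 0.147, 0.0913 and 0.0465 in CP2, and its ranges overlapped in every comparison. Zic1 had 1 count in P1 replicate 3 and 1 in CP2 replicate 4. At this depth no difference of Zic1 between the lines was detectable.

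**Figure D1:**
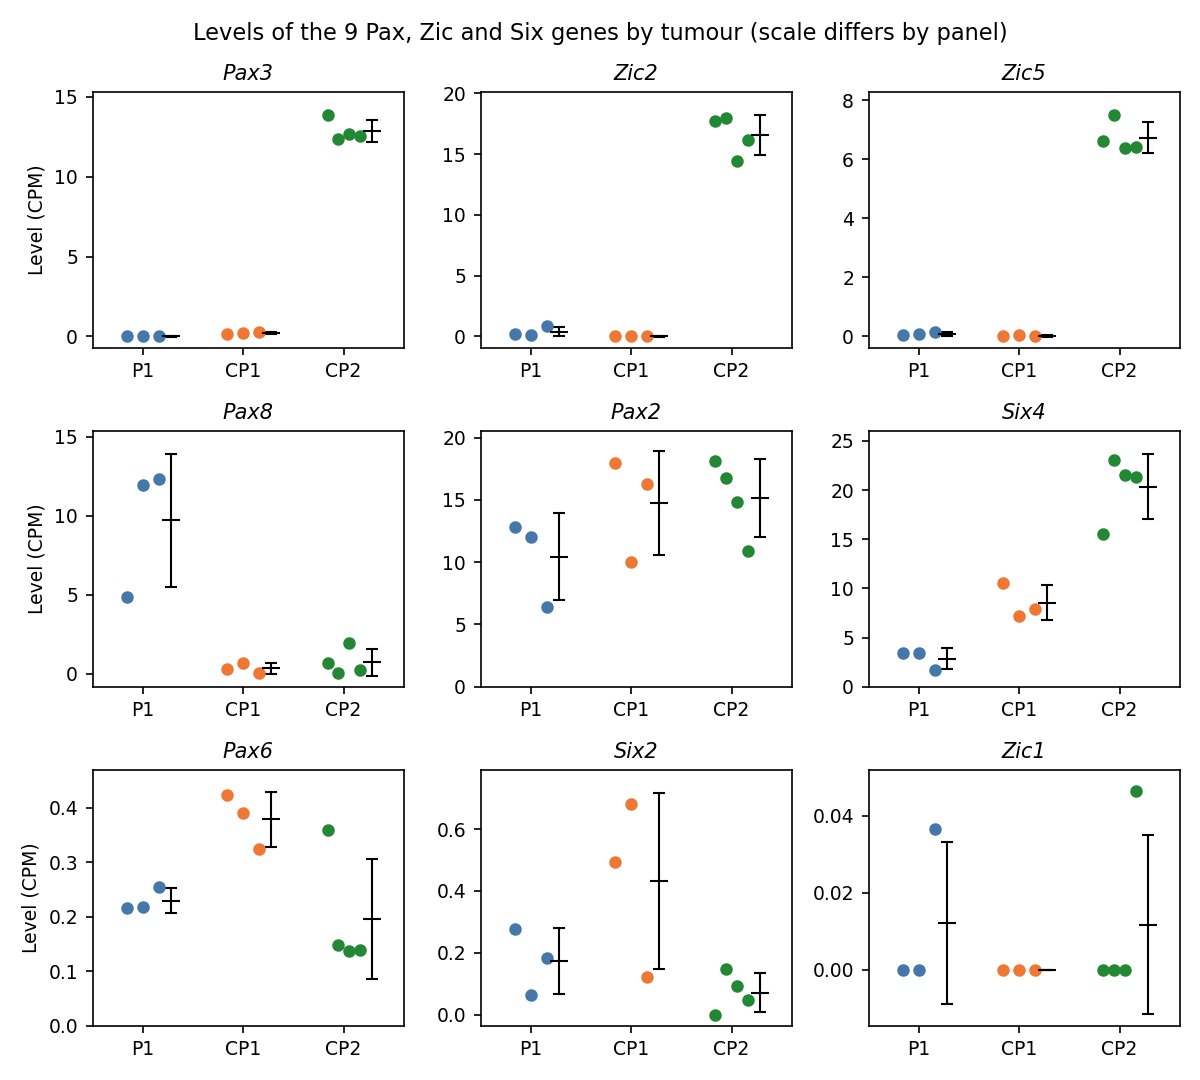
Level of each of the 9 genes in CPM (y axis, a scale of its own in each panel) in each tumour of P1 (n = 3), CP1 (n = 3) and CP2 (n = 4); points are tumours and bars are mean ± SD. Pax3, Zic2 and Zic5 stand high in CP2 alone, Pax8 in P1 alone, Six4 climbs from P1 to CP2 and Pax2 overlaps, while the bottom row stays below 1 CPM.

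Of the 9 members, 3 were higher and 2 lower in CP1 than in P1 with no overlap of the tumours' values, namely Pax3, Pax6 and Six4, and Pax8 and Zic2. Pax6 was not among the genes tested, and of the 6 tested members 2 were higher and 2 lower. Of all 17644 genes tested, 50.8% did not overlap in that comparison, 25.5% higher and 25.3% lower. In CP2 against P1, 4 were higher (Pax3, Zic2, Zic5 and Six4) and 1 lower (Pax8), with 60.1% of all genes not overlapping, 30.5% higher and 29.7% lower. In CP2 against CP1 the same 4 were higher and 0 lower, with 52.3% of all genes not overlapping, 26.7% higher and 25.6% lower. The members were chosen on these contrasts, so nothing is read from these shares. 6 of the 9 passed the filter on low counts, which asks for about 0.376 CPM in at least 3 tumours. Pax3 and Zic5 passed through the 4 CP2 tumours alone, Zic2 through 5 tumours and Pax8 through 6, while Pax6 and Six2 just missed it with 2 tumours each.

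Per length of exon, where levels of different genes can be compared, the leading member changed with the line. In P1 it was Pax2 at 1.93 ± 0.645 CPM per kb (SD, n = 3), followed by Pax8 at 1.60 ± 0.694, whose values overlapped those of Pax2, and Six4 came next at 0.264 ± 0.0945. In CP1 it was Pax2 at 2.73 ± 0.775, followed without overlap by Six4 at 0.787 ± 0.164. In CP2 it was Zic2 at 5.76 ± 0.574 (n = 4), above Pax2 at 2.81 ± 0.583 without overlap. Pax3 at 2.08 ± 0.111, Six4 at 1.88 ± 0.305 and Zic5 at 1.38 ± 0.108 followed in CP2, each overlapping its neighbour in the order.

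Among the further genes of the 3 families, Pax5, Pax9 and Six5 passed the filter. Counts were tested in edgeR with its quasi-likelihood test, and genes with an adjusted p (Benjamini-Hochberg, over all genes tested) below 0.05 are those called. This held for 44.8% of genes in CP1 against P1 (22.4% higher, 22.4% lower), 56.7% in CP2 against P1 (28.3% and 28.4%) and 43.3% in CP2 against CP1 (21.3% and 21.9%).

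Pax9, a factor of pharyngeal pouch and tooth development, was at 12.5, 21.3 and 16.9 CPM in P1, 0.424, 0.292 and 0.162 in CP1 and 6.94, 5.94, 6.89 and 6.33 in CP2. No ranges overlapped, and CP1 was the low line. Pax9 fell by 5.81 on the log2 scale in CP1 (SE 0.33, adjusted p = 1.65e-06) and fell by 1.37 in CP2 (SE 0.23, adjusted p = 0.000707), and CP2 exceeded CP1 by 4.44 ± 0.31 (adjusted p = 8.92e-06). Six5 was at 12.0 to 17.6 CPM in P1, 12.9 to 14.0 in CP1 and 11.7 to 12.9 in CP2, and Pax5, a B cell factor, at 0.0649 to 1.31 CPM over all tumours, and neither was called in any comparison. Pax1, Pax4, Pax7, Zic4, Six3 and Six6 did not pass the filter.

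The makeup of the Pax and Zic families per length showed the exchange of members between lines. Of the summed Pax level, Pax9 held 47.6%, Pax2 28.4% and Pax8 22.6% in P1 on average. Pax2 held 91.3% in CP1, and Pax2 held 43.7%, Pax3 32.9% and Pax9 20.4% in CP2. The summed Pax level was 6.97 ± 1.42 CPM per kb in P1, 2.98 ± 0.806 in CP1 and 6.37 ± 0.730 in CP2 (SD). The summed level of Zic1, Zic2, Zic4 and Zic5 was 0.155 ± 0.150 in P1, 0.00597 ± 0.0103 in CP1 and 7.14 ± 0.656 in CP2, where Zic2 held 80.6% and Zic5 19.3%.

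**Figure D2:**
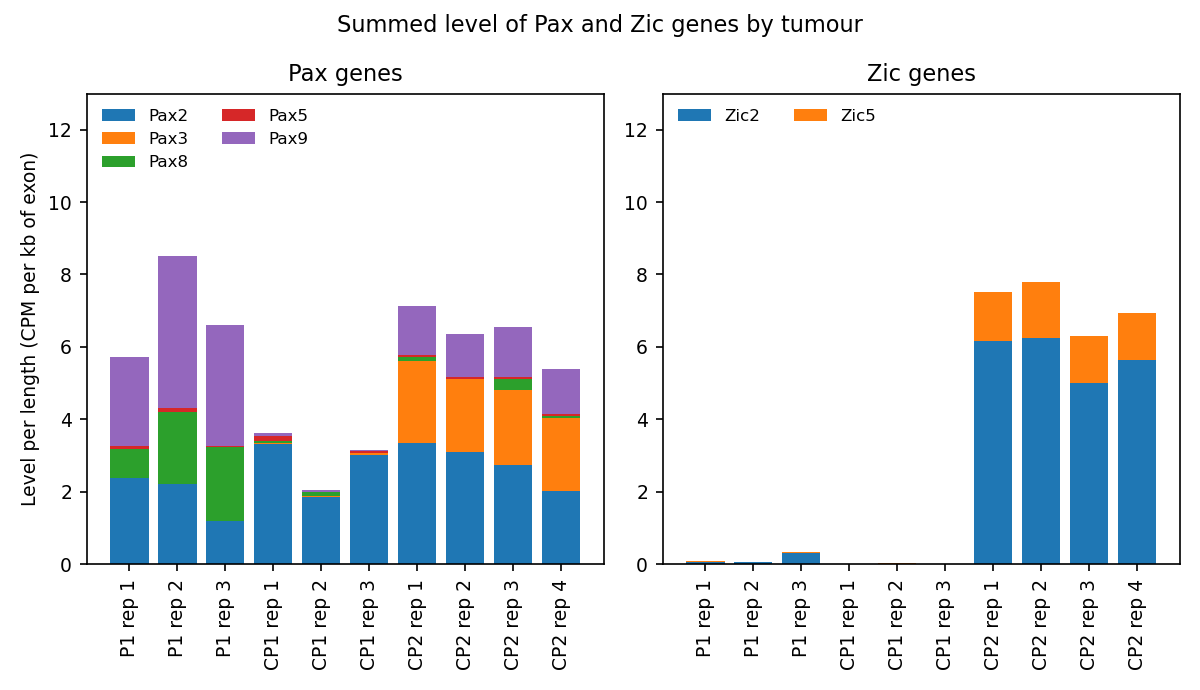
Summed level of Pax genes and of Zic1, Zic2, Zic4 and Zic5 in CPM per kb of exon (y axis, same scale in both panels) in each of the 10 tumours (x axis); colours are genes, and genes below 0.05 CPM per kb in every tumour are left out. Pax9, Pax2 and Pax8 make up most of the P1 bars, Pax2 most of the CP1 bars, and Pax3, Zic2 and Zic5 appear in the 4 CP2 bars.

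Eya, Dach and Groucho (Tle) proteins are the cofactors of sine oculis and Pax factors, and Eya1, Eya2 and Eya4 were each high in a different line. Of 12 cofactor genes, all tested, 3 rose and 3 fell in CP1 against P1, 7 rose and 1 fell in CP2 against P1, and 5 were higher and 2 lower in CP2 against CP1. Their median log2 fold changes were -0.21, 0.27 and 0.32, beside -0.01, 0.00 and -0.01 over all genes tested. Without P1 replicates 1 and 2, the counts for CP2 against P1 were 6 and 2.

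Eya2 was the P1 member, at 36.7, 42.7 and 37.1 CPM in P1, 2.97, 4.09 and 3.52 in CP1 and 1.80, 0.589, 1.46 and 1.49 in CP2. It fell by 3.46 on the log2 scale in CP1 (SE 0.30, adjusted p = 1.50e-05) and fell by 4.86 in CP2 (SE 0.29, adjusted p = 1.13e-06). Eya4 was the CP1 member, at 0.832, 0.468 and 0.402 CPM in P1, 11.1, 8.93 and 19.2 in CP1 and 0.463, 0.344, 0.548 and 0.512 in CP2. It rose by 4.51 ± 0.39 in CP1 over P1 (adjusted p = 1.46e-05) and fell by 4.79 in CP2 against CP1 (SE 0.36, adjusted p = 1.20e-05). P1 and CP2 overlapped for Eya4.

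Eya1 was the CP2 member, at 2.43, 1.25 and 1.24 CPM in P1, 0.318, 0.520 and 0.608 in CP1 and 13.1, 13.3, 9.26 and 12.8 in CP2. It fell by 1.77 in CP1 (SE 0.35, adjusted p = 0.00221) and rose by 2.88 ± 0.31 in CP2 over P1 (adjusted p = 4.00e-05). Dach1 was at 2.40 to 3.45 CPM in P1, 1.82 to 4.81 in CP1 and 42.8 to 46.7 in CP2, a rise of 3.92 ± 0.32 over P1 (adjusted p = 7.16e-06). Dach2 rose by 3.08 ± 0.45 in CP2 over P1 (adjusted p = 0.000283), from a mean of 0.966 to 8.23 CPM. Eya3 was at 44.9 to 63.2 CPM over all tumours and was not called in any comparison. The corepressor gene Tle1 rose by 1.20 ± 0.22 in CP2 (adjusted p = 0.00109) and by 0.72 ± 0.23 in CP1 (adjusted p = 0.0264), with overlapping values in CP1 and P1. That CP1 call ended without CP1 replicate 1, P1 replicate 2 or P1 replicate 3 (adjusted p = 0.0945, 0.0976 and 0.0899), and with only these lines in the fit (adjusted p = 0.0751).

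**Figure D3:**
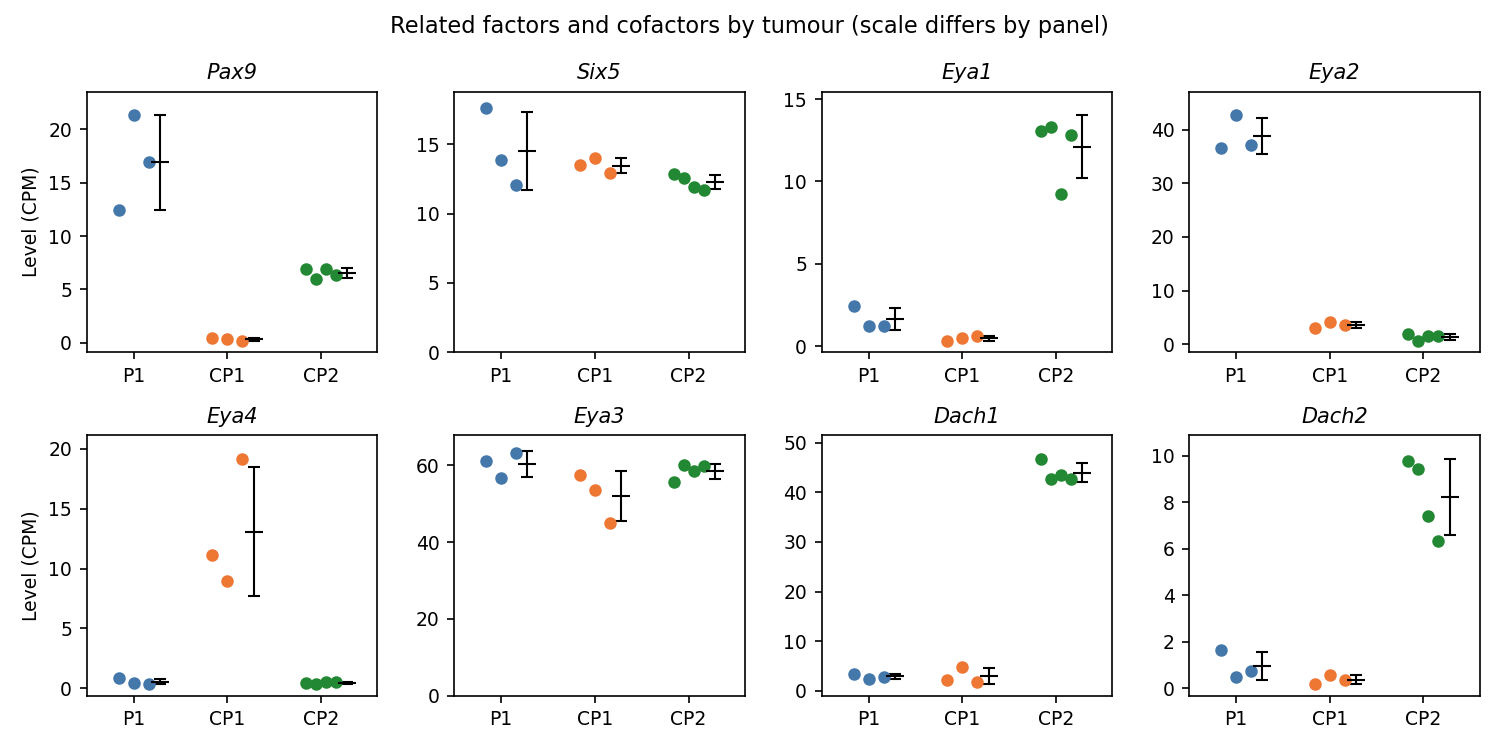
Levels in CPM (y axis, a scale of its own in each panel) of Pax9, Six5 and 6 Eya and Dach genes in each tumour of P1, CP1 and CP2; points are tumours and bars are mean ± SD. Eya2 stands high in P1, Eya4 in CP1, and Eya1, Dach1 and Dach2 in CP2, while Eya3 and Six5 were not called in any comparison.

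Genes of the nephric duct and urogenital system, where Pax2, Pax8 and Six2 act, moved in both directions. Of 21 tested of 23, 5 rose and 10 fell in CP1 against P1, 7 rose and 6 fell in CP2 against P1, and 5 rose and 5 fell in CP2 against CP1. Their medians were -0.03, -0.36 and 0.33. Robo2, a receptor for Slit ligands, rose from 1.36 ± 0.644 CPM in P1, reaching 39.2 ± 10.5 CPM in CP1 and 122 ± 9.47 CPM in CP2, which is 4.84 ± 0.31 on the log2 scale for CP1 (adjusted p = 2.88e-06) and 6.48 ± 0.32 for CP2 (adjusted p = 5.58e-07). Wnt4, a ligand of kidney tubule and gonad development, rose by 2.84 ± 0.25 in CP1 (adjusted p = 1.60e-05) and 2.90 ± 0.24 in CP2 (adjusted p = 7.66e-06). Sall1, a zinc finger gene of kidney development, was at 7.24, 4.02 and 2.81 CPM in P1 and at most 0.308 CPM in a CP tumour, and fell by 5.09 in CP2 (SE 0.55, adjusted p = 3.97e-05). Cdh16, a kidney cadherin gene that Pax8 is known to activate in thyroid cells, was at 1.20, 2.96 and 1.10 CPM in P1 and at most 0.233 CPM in a CP tumour. It fell by 4.80 in CP1 (SE 0.95, adjusted p = 0.00226) and fell by 4.13 in CP2 (SE 0.83, adjusted p = 0.00192).

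3 of 7 thyroid genes passed the filter, and their directions differed. Duox2, a hydrogen peroxide generating oxidase that gut epithelium also expresses, was at 46.0, 88.1 and 100.5 CPM in P1 and at most 0.682 CPM in a CP tumour. It fell by 7.77 in CP1 (SE 0.51, adjusted p = 3.19e-06) and fell by 9.43 in CP2 (SE 0.52, adjusted p = 8.28e-07). The iodide transporter gene Slc5a5 fell by 3.75 in CP2 (SE 0.64, adjusted p = 0.000712), and its call in CP1, a change of -2.08 (SE 0.63, adjusted p = 0.0211), ended without P1 replicates 1 and 2, where the value was 0.055 (adjusted p = 0.952). It also ended without CP1 replicate 2 or P1 replicate 2 (adjusted p = 0.0667 and 0.0802), and under 5 of 16 alternatives in all. Tg, the thyroglobulin gene, rose by 2.35 ± 0.37 in CP1 (adjusted p = 0.000579), to 1.07 ± 0.0595 CPM. Counts called were 1 higher and 2 lower in CP1 against P1, 0 and 2 in CP2 against P1, and 0 and 1 in CP2 against CP1, with medians of -2.08, -3.75 and -1.67. Without CP1 replicates 2 and 3, 1 fell in CP1 against P1.

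Of 22 neural crest genes, 20 were tested. 6 rose and 6 fell in CP1 against P1, 9 rose and 6 fell in CP2 against P1, and 6 rose and 5 fell in CP2 against CP1, with medians of 0.17, 0.43 and 0.12. Dlx3, a homeobox gene, rose from 0.379 ± 0.230 CPM in P1 to a mean of 17.6 ± 2.19 in CP1 (5.52 ± 0.32, adjusted p = 1.85e-06) and 49.3 ± 5.30 in CP2 (7.00 ± 0.33, adjusted p = 4.08e-07). Msx2, also a homeobox gene, rose by 3.62 ± 0.63 in CP1 (adjusted p = 0.00108) and 5.79 ± 0.67 in CP2 (adjusted p = 5.76e-05). Erbb3, a receptor of neural crest derived glia and of epithelia, fell by 3.49 in CP1 (SE 0.51, adjusted p = 0.00038) and fell by 4.87 in CP2 (SE 0.49, adjusted p = 2.49e-05). Kit, a receptor of melanocyte precursors and mast cells, fell by 1.64 in CP1 (SE 0.24, adjusted p = 0.000407) and rose by 1.08 ± 0.22 in CP2 (adjusted p = 0.0023). Tfap2c fell from a mean of 2.11 CPM in P1 to 0.461 CPM in CP2 (adjusted p = 0.00744), a call that ended without P1 replicates 1 and 2 (adjusted p = 0.194).

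Summed markers of melanocytes, Schwann cells and skeletal muscle, cell types of the lineages in which Pax3 acts, did not stand above both other lines in CP2, while the neuroendocrine sum did, and single markers differed from their sum. The part of such cells in the levels of the members was not tested. 5 melanocyte markers summed to 0.668 to 1.12 CPM in CP2, 1.01 to 1.23 in CP1 and 1.12 to 1.51 in P1, and the melanin enzyme genes Dct and Tyrp1 had 0 counts in every CP2 tumour. 8 Schwann cell markers summed to 82.9 to 110 CPM in CP2, 67.9 to 93.1 in CP1 and 205 to 232 in P1. 9 skeletal muscle markers summed to 7.90 to 19.9 CPM in CP2, 5.19 to 60.0 in CP1 and 23.9 to 60.7 in P1. Of the 6 muscle markers tested, 2 were higher and 2 lower in CP2 than in P1. Acta1, with a mean of 32.8 CPM in P1, 20.9 in CP1 and 2.66 in CP2, and Tnni2, with 7.77, 1.69 and 0.939 CPM, were the lower ones (adjusted p = 0.00993 and 0.000125), the Acta1 call ending without P1 replicates 1 and 2 (adjusted p = 0.206). Myh1, a myosin heavy chain gene, was higher in CP2, at 0.982 to 4.33 CPM against at most 0.0365 in P1, a ratio of 110.4 (exact 95% interval 30.2 to 918) on 2 P1 counts (adjusted p = 0.000295), and exceeded CP1 by 3.93 ± 0.75 (adjusted p = 0.00226). Tnnt3, a fast troponin gene, was at 0.0730 to 0.312 CPM in P1, 0.883 to 3.73 in CP1 and 1.23 to 3.29 in CP2, higher than P1 in CP1 (adjusted p = 0.00147, and 0.0519 without CP1 replicates 2 and 3) and CP2 (adjusted p = 0.000951). 6 neuroendocrine markers summed to 13.7 to 17.3 CPM in CP2, above 0.527 to 2.61 in CP1 and 6.13 to 12.3 in P1. That sum was carried by Syp, a synaptic vesicle gene, with a mean of 0.916 CPM in P1, 0.725 in CP1 and 14.1 in CP2 (adjusted p = 4.42e-05 against P1), while Chga and Chgb were lower in CP2 than in P1 (adjusted p = 0.000269 and 0.000782). 5 B cell markers summed to 3.19 to 7.31 CPM in CP2, 1.09 to 5.23 in CP1 and 6.94 to 13.1 in P1. 6 fibroblast markers summed to 2374 to 4209 CPM in CP2, 7267 to 11158 in CP1 and 3717 to 7063 in P1. Col1a1 and Col1a2 had the largest means of these, 1413 and 810 CPM in CP2. Of the 6, 3 were higher and 3 lower in CP2 than in P1. Pdgfra, Dcn and Postn were the higher ones (adjusted p = 6.19e-05, 0.00469 and 0.0133). Col1a1, Col1a2 and Lum were the lower ones (adjusted p = 0.029, 0.00242 and 0.00771), Col1a1 with overlapping values.

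Of 13 myogenic regulators, 4 were tested, and the defining genes Myf5, Myod1 and Myog had 1, 4 and 1 counts over all tumours. In CP1 against P1, 0 rose and 1 fell, in CP2 against P1 0 rose and 3 fell, and in CP2 against CP1 1 rose and 3 fell, with medians of -0.38, -1.37 and -1.39. Tcf21, a mesodermal helix-loop-helix gene, fell by 3.51 in CP2 (SE 0.41, adjusted p = 6.46e-05) and Meox2, a limb muscle homeobox gene, by 1.76 (SE 0.46, adjusted p = 0.00831). Met, the receptor gene used by migrating muscle precursors and expressed in epithelia, fell by 0.99 in CP2 (SE 0.15, adjusted p = 0.000406) and by 0.46 in CP1 (SE 0.17, adjusted p = 0.0436), the call in CP1 ending under 9 of 16 alternatives, with an adjusted p of up to 0.273. Without P1 replicates 1 and 2, 0 fell in CP1 against P1.

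Of 21 eye and islet genes, among them genes that Pax6 is known to regulate, 8 were tested. 3 rose and 2 fell in CP1 against P1, 5 rose and 1 fell in CP2 against P1, and 2 rose and 0 fell in CP2 against CP1, with medians of 0.63, 1.96 and 0.74. Maf rose by 1.82 ± 0.17 in CP1 (adjusted p = 2.50e-05) and 1.71 ± 0.16 in CP2 (adjusted p = 1.83e-05). The lens crystallin gene Cryaa rose by 2.99 ± 0.52 in CP1 (adjusted p = 0.00111) and 3.77 ± 0.52 in CP2 (adjusted p = 0.000183). Lhx2, an eye field homeobox gene, was at 2.16 to 4.02 CPM in CP2 and at most 0.141 in the other lines, a ratio of 102 to P1 with an exact 95% interval of 34.4 to 496 (adjusted p = 7.19e-06). Eomes fell by 1.15 in CP1 (SE 0.30, adjusted p = 0.00989) and rose by 2.46 ± 0.27 in CP2 over P1 (adjusted p = 4.29e-05). Its level was higher in CP2 than in CP1 by 3.61 ± 0.29 (adjusted p = 1.85e-05). Isl1 fell by 2.71 in CP1 (SE 0.80, adjusted p = 0.0188) and fell by 3.09 in CP2 (SE 0.75, adjusted p = 0.00577), the CP1 call ending under 4 of 16 alternatives, with an adjusted p of 0.0677 without CP1 replicate 3, 0.0805 without P1 replicate 1 and up to 0.194. Without P1 replicates 1 and 2, or without CP1 replicates 2 and 3, 1 fell in CP1 against P1.

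The Gli and Glis genes are the zinc finger relatives of Zic, and all 6 were tested. 2 rose and 4 fell in CP1 against P1, 2 rose and 1 fell in CP2 against P1, and 4 rose and 0 fell in CP2 against CP1, with medians of -0.87, -0.15 and 0.67. Gli3 rose from 7.41 ± 3.01 CPM in P1 to a mean of 60.5 ± 9.13 in CP1 (3.03 ± 0.25, adjusted p = 1.08e-05) and 96.3 ± 8.14 in CP2 (3.70 ± 0.25, adjusted p = 2.21e-06). Gli2 rose by 2.48 ± 0.33 in CP2 (adjusted p = 0.000139), and Glis1 fell by 3.44 in CP1 (SE 0.44, adjusted p = 0.000157) and fell by 2.96 in CP2 (SE 0.39, adjusted p = 0.000131). In CP1 against P1, Gli2 (0.90 ± 0.33, adjusted p = 0.0477) and Gli1 (-0.93 ± 0.34, adjusted p = 0.0458) were called with overlapping values and lost the call under 11 and 12 of 16 alternatives. Without CP1 replicates 2 and 3, 1 rose and 0 fell in CP2 against CP1 and 2 rose and 2 fell in CP1 against P1, and without P1 replicates 1 and 2 the latter counts were 1 and 2.

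57 tested genes that are no member start within 500 kb of a member. Of these, 45.6% were called in CP1 against P1, 54.4% in CP2 against P1 and 36.8% in CP2 against CP1, beside the 44.8%, 56.7% and 43.3% of all genes. At Zic2, the processed transcript 2610035F20Rik starts 0.236 kb from the Zic2 start and was chosen after its values were seen. Its mean level was 0.0207 CPM in P1, 0.0118 in CP1 and 2.38 ± 0.463 (SD) in CP2, called higher in CP2 than in P1 (adjusted p = 8.52e-06) and than in CP1 (adjusted p = 2.17e-05). Pcca, a propionyl-CoA carboxylase subunit gene 58.9 kb from Zic2, fell by 0.31 in CP1 (SE 0.09, adjusted p = 0.0198) and fell by 0.34 in CP2 (SE 0.09, adjusted p = 0.00663). The Pcca call in CP1 ended under 5 of 16 alternatives, among them without CP1 replicate 3 (adjusted p = 0.0724), and both ended without P1 replicates 1 and 2 (adjusted p = 0.127 and 0.0691).

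At Pax3, the nearest tested coding gene on the right was Sgpp2, a sphingosine phosphatase gene 113 kb away, which moved the opposite way. Its mean level was 141 ± 33.7 CPM for P1, 0.820 ± 0.269 for CP1 and 0.203 ± 0.166 for CP2, so that it fell by 7.41 in CP1 (SE 0.42, adjusted p = 1.54e-06) and fell by 9.39 in CP2 (SE 0.43, adjusted p = 3.75e-07). Epha4, 682 kb to the left, fell by 3.70 in CP1 (SE 0.48, adjusted p = 0.000184) and fell by 3.37 in CP2 (SE 0.43, adjusted p = 0.000109). At Six4, Mnat1, 10.3 kb away, was not called in any comparison. At Pax8, Psd4 fell by 1.09 in CP1 (SE 0.31, adjusted p = 0.0151) and was not called in CP2 against P1 (adjusted p = 0.695), the CP1 call ending without CP1 replicate 3, without P1 replicates 1 and 2 and with only these lines in the fit (adjusted p = 0.0577, 0.166 and 0.0525), and Cacna1b rose by 2.18 ± 0.30 in CP2 (adjusted p = 0.000196). At Pax2, Slf2 rose by 1.01 ± 0.15 in CP1 (adjusted p = 0.000369) and 1.16 ± 0.14 in CP2 (adjusted p = 8.26e-05), while Hif1an was not called against P1 in CP1 or CP2 (adjusted p = 0.0931 and 0.33).

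**Figure D4:**
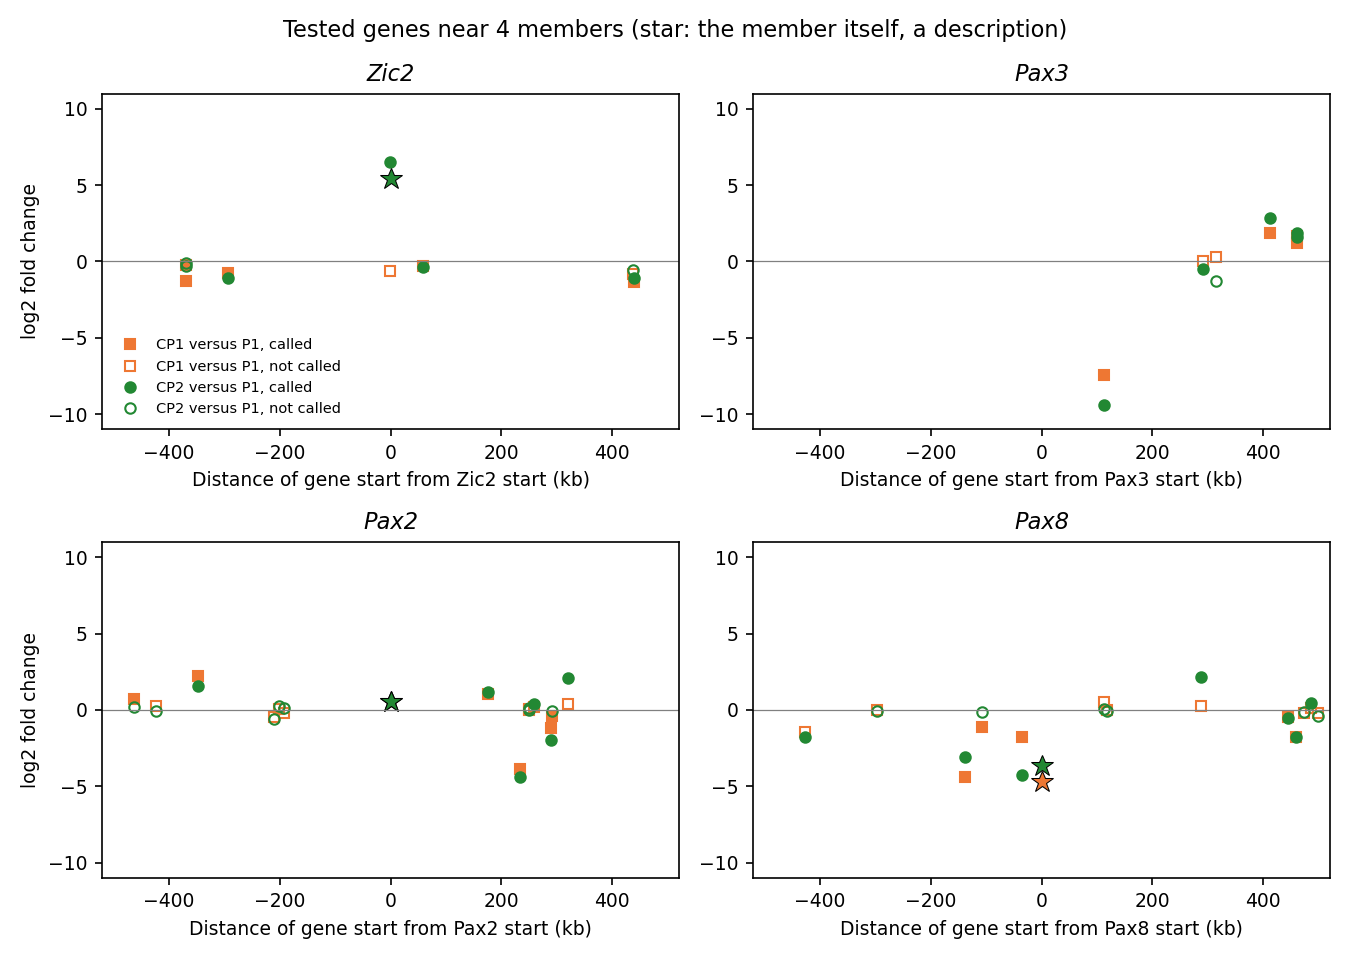
log2 fold change over P1 (y axis) of tested genes within 500 kb of Zic2, Pax3, Pax2 and Pax8 against the distance of their start from the member's start in kb (x axis), for CP1 (squares) and CP2 (circles), filled where called; stars are the members, drawn where neither line had 3 or fewer counts. At Zic2, 2610035F20Rik, with a mean of 0.0207 CPM in P1, lies beside the star, and at Pax3, Sgpp2 lies at -7.41 and -9.39.

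For each member, the tested genes with the most similar profile were found by the root mean square difference between centred log2(CPM + 0.5) profiles over the 10 tumours, among 14883 genes. Closest to Pax3 was Unc5d, a netrin receptor gene, at a difference of 0.172, with a mean of 0.0328 CPM in P1, 0.205 in CP1 and 12.5 in CP2, and then Lypd2 and Kcnmb2. Closest to Zic2 was Twist1, a mesenchymal and neural crest transcription factor gene, at 0.426, with 7.60, 3.06 and 149 CPM, and then Evx1os and Lypd2. Closest to Zic5 was C130071C03Rik at 0.161, with 0.0450, 0.0388 and 7.44 CPM, and then D430041D05Rik and Foxd1. Closest to Pax8 was Ugt2b36, a glucuronosyltransferase gene, at 0.438, with 3.85, 0.0108 and 0.150 CPM, and then Foxa3 and Celf4. Closest to Six4 was Prdm11 at 0.180, with 6.16, 14.7 and 37.1 CPM, and then Trps1, and closest to Pax2 was Thap2 at 0.139, with 15.3, 20.7 and 21.9 CPM, and then Rbpj-ps3 and Atf7. Pax6, Six2 and Zic1 have profiles so flat near 0 that genes with small differences between the lines came closest (Ncstn, Fance and Rabif, Dnajc25, Gm7816 and Gm44215, and Nsf, Vps35l and Ythdc1). With a pseudocount of 0.1 in place of 0.5, 3 of 3 nearest genes were shared for Pax2 and Pax3, 2 of 3 for Pax8 and Zic5, and 0 of 3 for Zic2, Pax6, Six2 and Zic1.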

How the data were processed

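Each tumour has a file of counts per Ensembl gene, deposited by the authors as whole numbers without normalization. DESeq2 1.14.1 with R 3.2.3, HTSeq 0.6.0, and TopHat2 2.1.0 with Bowtie2 2.2.6.0 on GRCm38.p3 are named per the submitters' processing notes. Parameters, annotation and strand setting are not given in the sources used here. Of 47069 IDs, 46574 matched GENCODE M21 (GRCm38), the source of symbols, positions and exon lengths. Promoters came from RefSeq (GRCm38.p6). Replicates differed beyond sampling noise (chi-square per gene 12.2 to 353).

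The test was the quasi-likelihood test of edgeR 4.0.16 (limma 3.58.1, R 4.3.3) with TMM factors, filterByExpr (minimum count 10, minimum total 15; 17644 genes) and all 10 tumours in 1 fit with a mean per line. Adjusted p-values cover all genes tested. CPM use TMM-scaled totals, and SE is the log2 fold change over the square root of F. With 1 to 3 counts in a line, an exact 95% interval around the ratio of counts replaces the fitted fold. It uses counts summed over a line's tumours and leaves out the spread between them. The fit was tested on simulated data. DESeq2 1.42.0, RLE scaling, no filter, only the lines compared, omitted tumours and a replicate block were alternatives.

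The members and lists were chosen with earlier results of these data known. Named were the 9 members, the other genes of the families, per list up to 2 called rises and 2 called falls against P1 with a mean of at least 1 CPM in a line, the 3 nearest profiles per member and the nearest tested coding gene on each side. Some of these nearest genes are left out of the text. Eya3, Gm13415, 2610035F20Rik, the marker genes (Dct and Tyrp1 among them), Myf5, Myod1 and Myog fall outside that rule and were chosen after values were seen. Part of the genotypes and some of these genes are not reported here.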

Additional observations from a re-analysis of the deposited data

Results flagged for a closer look

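Among 50 genes checked in CP2, the line with 4 tumours, 2 had a tumour far from the others by Dixon's ratio of gap to range, above its 95% critical value for 4 samples. Chance flags about 1 in 20 such groups. Pax6 was at 0.360 CPM in CP2 replicate 1, the highest of its line, with a ratio of 0.953. The value rests on 7 counts, against 3 in each of the other CP2 tumours. CP2 replicate 1 is the tumour whose title names CP1, and its Pax3 level was 13.9 CPM, against at most 0.284 CPM in CP1. Eya1 was at 9.26 CPM in CP2 replicate 3, the lowest of its line, with a ratio of 0.876, and this tumour still stood above every P1 and CP1 tumour.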

How the results depend on the processing

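The number of genes called was 7907 in CP1 against P1, 9999 in CP2 against P1 and 7635 in CP2 against CP1. It stayed within 1.5 times of these under all alternatives run but 1: without CP1 replicates 2 and 3, 4161 were called in CP2 against CP1. Leaving out each tumour in turn gave 6886 to 8016, 8956 to 10210 and 6290 to 8704. Numbers in the titles are shared by P1 and CP2 for 2 tumours each. With them as a replicate block, 9537 genes were called in CP2 against P1, and the same-numbered tumours did not deviate together (correlations of -0.188 and -0.0626), so the numbers were not taken as pairs.

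Levels of the members kept within 1 SD under other scalings in 54 of 54 values, while their fold changes moved by more than 1 SD in 60 of 291, mostly those of Pax3, Zic2 and Zic5. Over the alternatives, the log2 fold change of CP2 over P1 ranged from 4.27 to 6.55 for Zic2, 5.45 to 7.03 for Zic5, 2.55 to 3.57 for Six4, -4.79 to -3.28 for Pax8 and 0.28 to 1.21 for Pax2, that of CP1 over P1 from -5.67 to -4.25 for Pax8, 1.29 to 2.31 for Six4 and 0.23 to 1.17 for Pax2, and that of CP2 over CP1 from 5.74 to 6.14 for Pax3 and -0.04 to 2.00 for Pax8. Counts for the gene lists stayed within 1.5 times in 707 values and moved further in 77. Among other named genes, 2869 values kept their direction and side of the threshold, 119 lost a call, 30 gained one and 6 turned. The turned values were Rcn1 in CP2 against P1 (0.65 without P1 replicate 1, 0.58 without P1 replicates 1 and 2, and -0.40 to 0.65 over the omission of single tumours), Dach1 in CP1 against P1 (-0.55 without CP1 replicate 2, and up to 0.26 without CP1 replicate 3), Erbb3 and Acta1 in CP2 against CP1 (0.37 and 0.96 without CP1 replicates 2 and 3) and Slc5a5 in CP1 against P1 (0.055 without P1 replicates 1 and 2). The cause was not tested. Depth limits Zic1, Pax6 and Six2, and the low lines of Pax3, Zic2 and Zic5, to a few counts.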
